A study of Mus musculus with 12 samples.

Results

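The genes described here encode receptors of the classical neurotransmitters in mouse hypothalamus. They were chosen by symbol, with 12 name patterns for receptors of glutamate, GABA, glycine, acetylcholine, serotonin, dopamine, noradrenaline and histamine. The dopamine receptor gene Drd2 is not in these patterns. Of the 19938 genes measured, 91 were receptor genes of this kind, in 14 receptor classes for 8 transmitters. The RNA came from the hypothalamus of male C57BL/6J mice, 23 weeks old, with no genetic change named in the labels. Controls included, every animal was fed, from the age of 3 weeks on and for 20 weeks, a high fat diet (45%, of what the labels do not say), and every animal received DMSO by intraperitoneal injection for 4 days. They were then injected daily for another 4 days with DMSO, the vehicle, with celastrol at 100 µg/kg, or with withaferin A at 2 mg/kg. Celastrol is a triterpenoid of the thunder god vine and withaferin A a steroidal lactone of ashwagandha, and both are known to lower the food intake of obese mice. Each group had 4 arrays, 12 in all, called biological replicates in the labels, which do not say whether an array held 1 animal or a pool.

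Neurotransmitter receptors are of 2 kinds. Ligand-gated ion channels are assembled from several subunits, each encoded by a gene of its own, and open within milliseconds, whereas G protein-coupled receptors, most of them encoded by 1 gene each, act through second messengers. In the hypothalamus, GABA and glutamate carry most fast transmission onto the neurons that control feeding, body temperature and hormone release, and serotonin, histamine, dopamine, noradrenaline and acetylcholine modulate them. The serotonin receptor encoded by Htr2c, the histamine receptors encoded by Hrh1 and Hrh3 and the muscarinic receptor encoded by Chrm3 are known from work on appetite.

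Signals are log2 values from RMA, a method that corrects background, normalizes between arrays and summarizes the probes of a gene. A log2 difference of 1 is a doubling, and differences are group means subtracted, with the standard error (SE) from limma's fit to the 12 arrays. A gene was called when its Benjamini-Hochberg adjusted p over the 14953 genes tested was under 0.05, and the verbs rose and fell are kept for called genes. Of the 91 receptor genes, 79 had a mean signal at or above the 25th percentile of all genes, a log2 signal of 5.81, and were tested. The other 12 gave only dim signals, from 3.87 to 6.07 on single arrays. They were the nicotinic subunit genes Chrna1, Chrna2, Chrna5, Chrna9, Chrna10 and Chrnd, the GABA-A subunit genes Gabra6, Gabrp, Gabrr1 and Gabrr3, the histamine receptor gene Hrh4 and the serotonin receptor gene Htr2b. The subunits of Chrna1 and Chrnd belong to the receptor of muscle, and that of Gabra6 to cerebellar granule cells.

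Of the hypothalamus markers, 8 of 8, among them Nkx2-1, Sim1 and Otp, passed the filter on dim genes. The filter kept 14953 of all 19938 genes, so passing it does not by itself show the tissue. Markers of neighbouring tissue were present as well and differed between arrays. Pituitary markers (8 with a signal) averaged 0.29 to 1.78 above the DMSO mean on the celastrol arrays, with replicate 2 the highest, and 0.02 to 0.35 above it on the withaferin A arrays. The thalamus markers (8 genes) ranged from −0.49 to 0.65 around the DMSO mean on the DMSO arrays, from −0.14 to 0.88 on the celastrol arrays and from −0.31 to 0.64 on the withaferin A arrays. The mean over 8 pan-neuronal markers stayed between −0.07 and 0.05 on the 12 arrays. In whole tissue, fewer cells of a type and less RNA per cell cannot be told apart.

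Celastrol was compared with DMSO to ask which receptor genes differed after the compound. Of the 79 receptor genes, 1 was called, the GABA-A subunit gene Gabre, which fell. Over all 14953 genes the called share was 0.769%, and 0.314% were called lower. The arrays of the groups did not overlap for 7 receptor genes, 3 higher (Chrm3, Gabrr2 and Grin2c) and 4 lower (Chrm5, Gabre, Hrh1 and Htr3a), or 8.86% of those tested, against 7.21% of all genes. At an unadjusted p under 0.05 there were 10 receptor genes, or 12.7%, against 10.4% of all genes. By sign, 31 were higher and 48 lower, with a median of −0.03 against −0.02 for all genes. With the arrays centred on their medians the split was 29 to 50, and with quantile normalization repeated it was 32 to 47.

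Withaferin A was set against the same DMSO arrays, so the comparisons of the compounds with DMSO are not independent. Here limma called 0 of the 79 receptor genes, and 0% of all genes. The groups did not overlap for 6 receptor genes, Grin2c higher and Chrm5, Gabre, Gria1, Htr2a and Htr2c lower, a share of 7.59% against 7.6% of all genes. At an unadjusted p under 0.05 there were 16 receptor genes, 7 higher and 9 lower, or 20.3% against 15.7%. By sign 41 were higher and 38 lower, with a median of 0.01 against −0.00 for all genes, and the split depended on the scaling: it was 28 to 51 with arrays centred on their medians and 43 to 36 with quantile normalization repeated. Without DMSO replicate 3, the fit called 172 of all genes and 2 receptor genes, Adra2c and Htr1f, both higher.

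The compounds were also compared directly, at doses that differ. Between withaferin A and celastrol 0 receptor genes were called, against 0.0468% of all genes, and at a threshold of 0.10 only Htr1b would pass. The arrays of the compounds did not overlap for 6 receptor genes, with Chrnb1, Htr1d and Htr1f higher and Glra3, Gria3 and Htr1b lower after withaferin A. That is 7.59% of the receptor genes, against 9.27% of all genes. An unadjusted p under 0.05 was found for 13, or 16.5% against 16.1%. The split by sign was 41 higher and 38 lower, 37 to 42 with centred arrays and 51 to 28 with quantile normalization repeated. In the F test of any difference among the 3 groups 0 receptor genes were called, against 0.354% of all genes, and 19 had an unadjusted p under 0.05, against 17.2% of all genes. The smallest adjusted p of the F test were 0.053 for Gabre and 0.0959 for Htr1b.

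**Figure D1:**
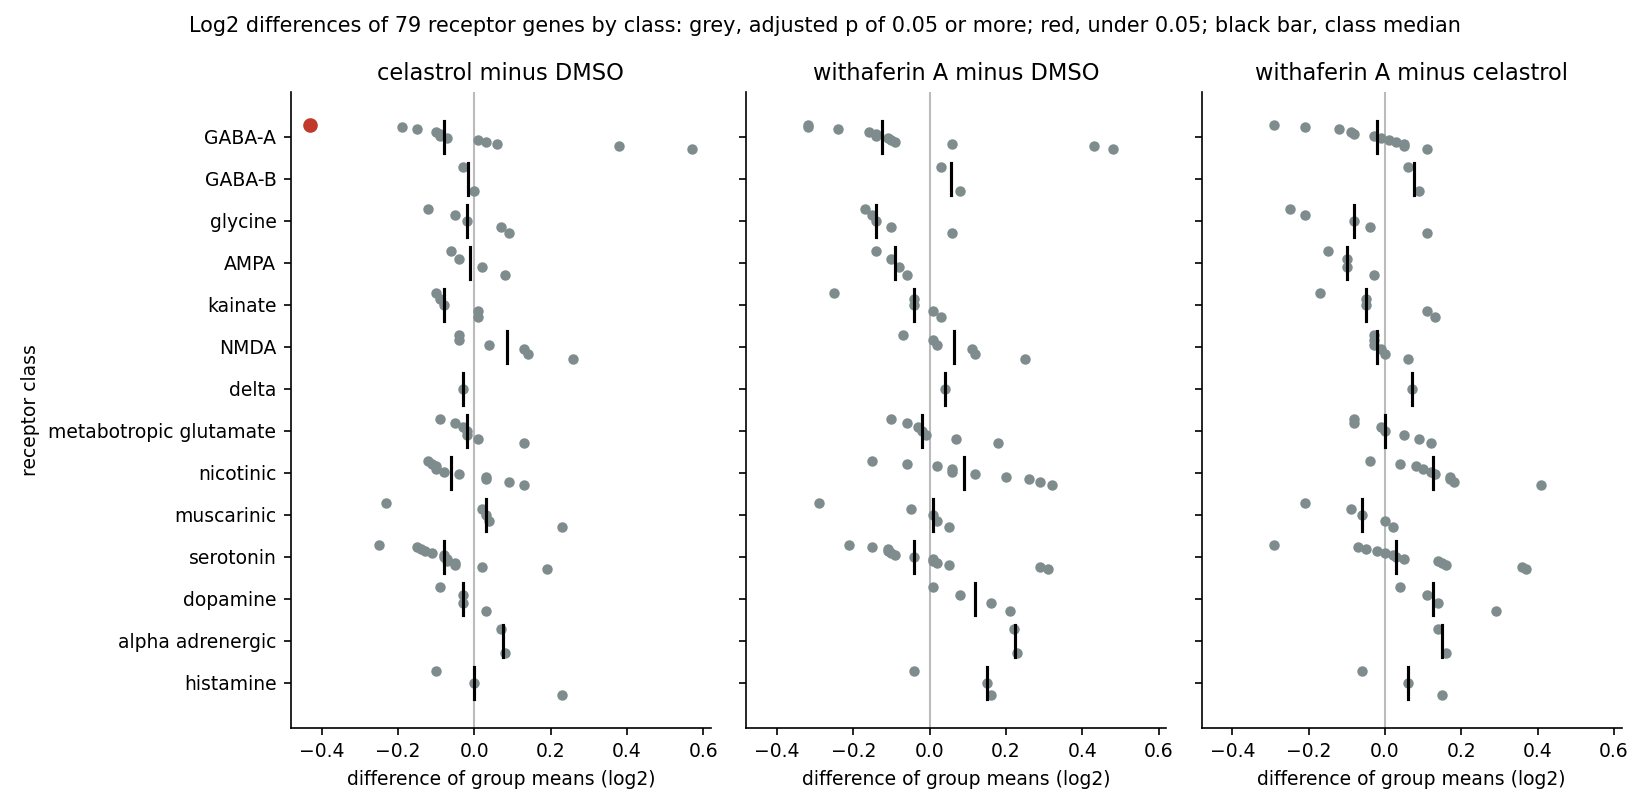
Each point is 1 of the 79 tested receptor genes, placed by the difference of group means (log2, horizontal axis) within its receptor class (vertical axis), for celastrol minus DMSO, withaferin A minus DMSO and withaferin A minus celastrol; the black bar is the class median. The 1 red point is Gabre at −0.43 after celastrol, the only gene with an adjusted p under 0.05, and most other points lie within 0.2 of 0.

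GABA-A receptors are chloride channels of 5 subunits and the main inhibitory receptors of the brain. Gabre encodes the epsilon subunit, which is known from the hypothalamus and from monoamine nuclei and makes receptors that benzodiazepines do not enhance. Its signals, in the order of replicates 1 to 4 here and below, were 9.83, 9.63, 9.65 and 9.55 on the DMSO arrays, 9.36, 9.25, 9.05 and 9.27 on the celastrol arrays and 9.26, 9.47, 9.32 and 9.32 on the withaferin A arrays. The 4 DMSO arrays lay above the 8 others, with the lowest DMSO array at 9.55 and the highest treated array at 9.47. Gabre fell after celastrol, with a log2 value of −0.43 ± 0.08 (adjusted p = 0.0234), a 1.35-fold lower mean. After withaferin A the value was −0.32 ± 0.08 (adjusted p = 0.155), which did not pass. Withaferin A minus celastrol was 0.11 ± 0.08 (adjusted p = 0.487), with a 95% interval of −0.06 to 0.28.

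The call of Gabre after celastrol held in 16 of 22 alternative fits, in which its value ran from −0.47 to −0.37. The adjusted p was 0.0763, 0.0713 and 0.0542 without DMSO replicates 1, 2 and 3, 0.0678 and 0.0731 without celastrol replicates 2 and 3, and 0.0502 with a replicate block. The markers of GABA neurons are given beside it. All 3 of these (Slc32a1, Gad1 and Gad2) had lower means after celastrol, 3 of 3 at an unadjusted p under 0.05 and 0 called, and their average was −0.32 to −0.14 on the celastrol arrays, −0.14 to −0.09 on the withaferin A arrays and −0.07 to 0.04 on the DMSO arrays. Gad1, which makes GABA from glutamate, read 11.29 to 11.33 with DMSO, 11.02 to 11.21 with celastrol and 11.16 to 11.27 with withaferin A. No treated array reached the DMSO range of Gad1. Gad2 read 11.68 to 11.80, 11.46 to 11.61 and 11.61 to 11.74 in the same order, so withaferin A overlapped with DMSO. Slc32a1 read 9.18 to 9.39, 8.92 to 9.22 and 9.11 to 9.20, and both compounds overlapped with DMSO. Of all genes, 7.21% did not overlap with DMSO after celastrol and 7.6% after withaferin A. Averages of the oligodendrocyte (−0.24 to −0.20), endothelial (−0.26 to −0.09), microglia (−0.22 to −0.01) and hypothalamus (−0.22 to −0.02) markers were also below the DMSO mean on all 4 celastrol arrays. The oligodendrocyte genes did not move alike: 5 of the 6 tested had lower means, 1 of them called, and 1 had a higher mean, by 0.31. The oligodendrocyte (−0.25 to −0.05), microglia (−0.33 to −0.02) and hypothalamus (−0.09 to −0.04) averages were below the DMSO mean on the 4 withaferin A arrays as well. The endothelial average ran from −0.20 to 0.02 there. The part of these markers in the Gabre result was not tested. With the thalamus marker score as a covariate, chosen after the data were seen, Gabre was called at −0.41 ± 0.08 (adjusted p = 0.0417).

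**Figure D2:**
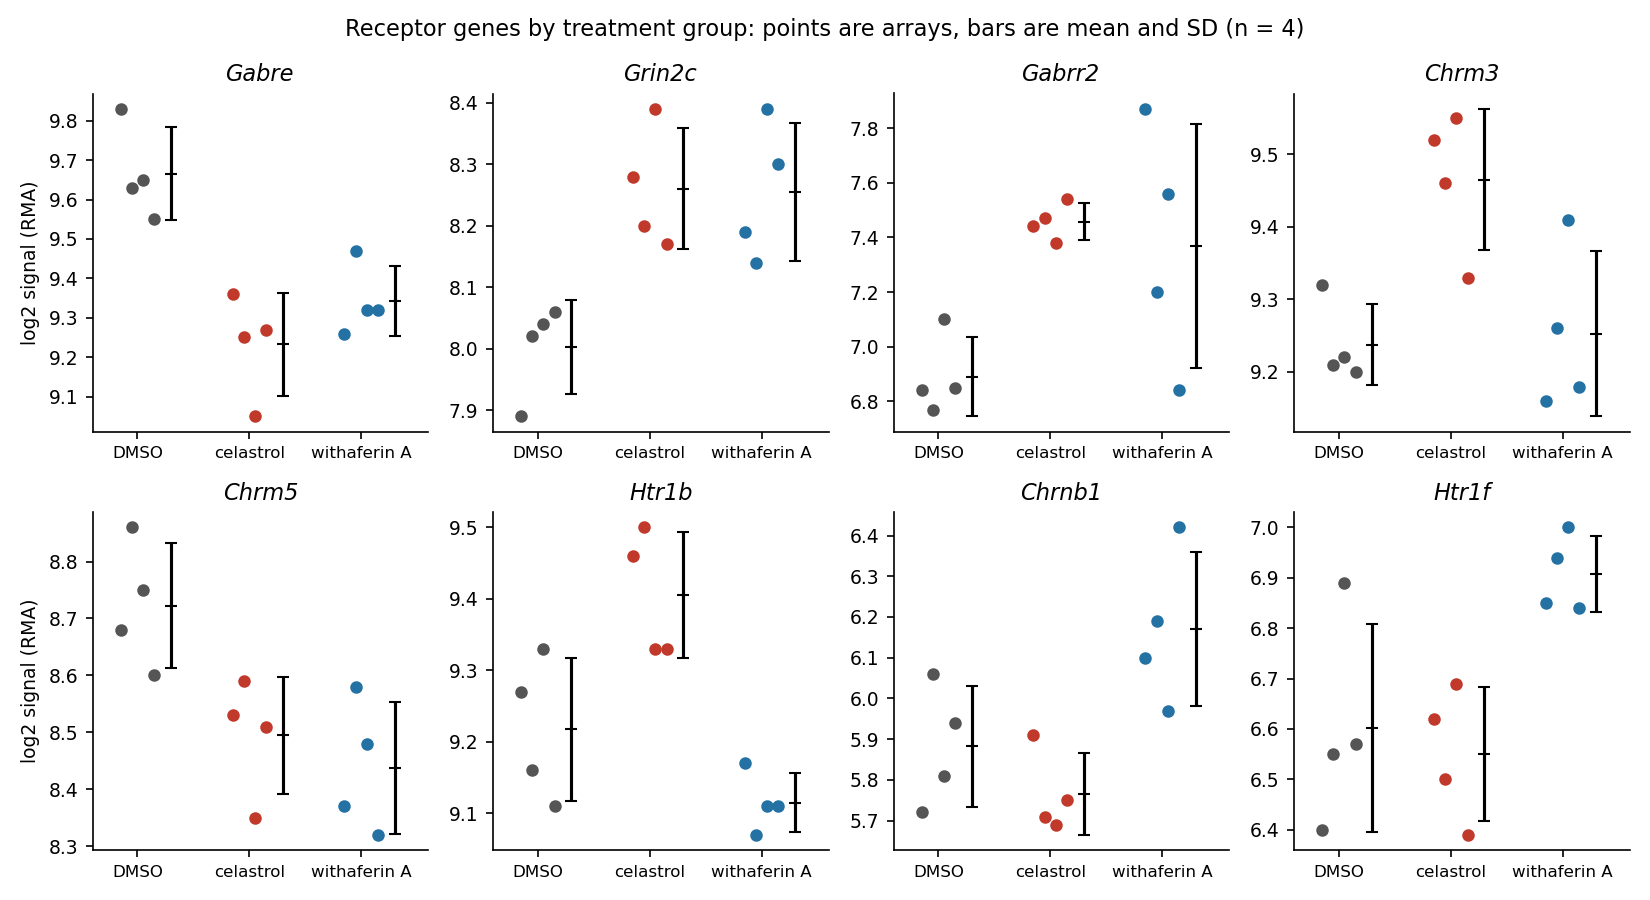
Log2 RMA signal (vertical axis) of 8 receptor genes on each array, by treatment group (horizontal axis); points are arrays in the order of replicates 1 to 4, and the bar beside them is the mean and SD of 4 arrays. The DMSO points of Gabre and Chrm5 lie above all treated points, those of Grin2c lie below all treated points, and for Gabrr2 the withaferin A points spread from 6.84 to 7.87.

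The sequence before the start of Gabre is printed with those of Gabrr2 and Grin2c, because these were the 3 receptor genes with the smallest p after celastrol and lay on opposite sides of the DMSO mean. Each is the 250 bases upstream of the RefSeq start in GRCm38.p6, written 5′ to 3′ along the gene's strand, and 71 of the 91 receptor genes were in the promoter table. Capitals mark the GC box (GGGCGG or its reverse complement CCGCCC) and the half-site of the glucocorticoid receptor (TGTTCT or AGAACA). Gabre lies at chrX:72274722-72274971 on the minus strand, Gabrr2 at chr4:33062862-33063111 on the plus strand and Grin2c at chr11:115267244-115267493 on the minus strand.
Gabre: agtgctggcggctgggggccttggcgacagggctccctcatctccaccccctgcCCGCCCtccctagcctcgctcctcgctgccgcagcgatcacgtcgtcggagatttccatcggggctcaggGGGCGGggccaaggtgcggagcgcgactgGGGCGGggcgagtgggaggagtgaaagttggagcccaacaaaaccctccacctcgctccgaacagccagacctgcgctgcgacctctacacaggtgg
Gabrr2: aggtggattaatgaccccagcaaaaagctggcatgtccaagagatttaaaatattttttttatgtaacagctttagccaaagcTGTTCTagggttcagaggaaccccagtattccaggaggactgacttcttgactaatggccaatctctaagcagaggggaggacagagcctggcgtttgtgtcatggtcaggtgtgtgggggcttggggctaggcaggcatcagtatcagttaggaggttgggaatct
Grin2c: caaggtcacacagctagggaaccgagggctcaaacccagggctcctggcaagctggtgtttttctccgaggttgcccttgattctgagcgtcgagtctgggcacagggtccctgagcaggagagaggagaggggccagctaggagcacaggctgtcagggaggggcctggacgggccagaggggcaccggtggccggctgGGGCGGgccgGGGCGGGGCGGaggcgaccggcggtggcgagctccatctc
The Gabre and Grin2c stretches each held 3 GC boxes and no half-site, with 68.8% G and C and 21 and 15 CpG. The Gabrr2 stretch held 1 half-site and no GC box, with 47.6% G and C and 1 CpG. Of all 32851 promoters listed there, 16.1% held a half-site and 32.7% a GC box, and the median was 52.4% G and C with 6 CpG. Of the 71 receptor genes 10 (14.1%) held a half-site and 38 (53.5%) a GC box in at least 1 of their listed promoters. These shares count genes and those of all promoters count single promoters, so they cannot be compared directly. A match is a string of letters, and binding was not measured.

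Gabrr2 encodes the rho2 subunit, which forms channels of the type first known from the retina. Its signals were 6.84, 6.77, 7.10 and 6.85 on the DMSO arrays, 7.44, 7.47, 7.38 and 7.54 on the celastrol arrays and 7.87, 7.20, 7.56 and 6.84 on the withaferin A arrays. All celastrol arrays lay above the highest DMSO array, 7.10, while withaferin A replicate 4 was inside the DMSO range and replicate 1 was the highest of the 12. The values were 0.57 ± 0.16 (adjusted p = 0.162) for celastrol, 0.48 ± 0.16 (adjusted p = 0.222) for withaferin A and −0.09 ± 0.16 (adjusted p = 0.817) between them. The celastrol value was the largest of the 79 receptor genes and did not pass. The celastrol group had an SD of 0.07, the DMSO group 0.14 and the withaferin A group 0.45, and the test pools the spread of the 3 groups. Gabrr2 was called after celastrol in 3 of 21 alternative fits. These were the fit to the 8 DMSO and celastrol arrays alone (adjusted p = 0.00498) and those without withaferin A replicate 1 (0.0456) or 4 (0.0478). Over the alternatives its value ran from 0.53 to 0.64, and the highest adjusted p was 0.37, without DMSO replicate 2. Gabrr1, the rho1 gene that lies next to Gabrr2, was below the filter.

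The other GABA-A subunits divide into alpha and beta, which form the GABA site, and gamma, delta and theta, which set location and drug response. Of the 12 tested GABA-A genes 7 were lower after celastrol and 9 after withaferin A, with medians of −0.08 and −0.12, against −0.02 and −0.00 for all genes. After withaferin A 9 were lower with centred arrays (median −0.17) and 8 with quantile normalization repeated (median −0.06). Among the gamma subunits, Gabrg1 read 10.59, 10.43, 10.14 and 10.41 with DMSO, 10.28, 10.47, 10.16 and 10.25 with celastrol and 10.26, 10.03, 10.15 and 9.88 with withaferin A, with values of −0.10 ± 0.10 (adjusted p = 0.801) and −0.32 ± 0.10 (adjusted p = 0.203). The ranges overlapped, since DMSO replicate 3 (10.14) lay among the treated arrays. Gabrg3 had −0.19 ± 0.07 (adjusted p = 0.348) after celastrol and −0.14 ± 0.07 (adjusted p = 0.368) after withaferin A. Among the alpha subunits, Gabra2 had −0.09 and −0.16, Gabra3 −0.07 and −0.10, and Gabra5 0.01 and −0.11 for celastrol and withaferin A. The beta subunit gene Gabrb2 had 0.06 ± 0.12 (adjusted p = 0.917) and −0.24 ± 0.12 (adjusted p = 0.35), and withaferin A minus celastrol was −0.29 ± 0.12 (adjusted p = 0.258); Gabrb1 had −0.09 with either compound. The theta subunit gene Gabrq had −0.15 and −0.14.

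**Figure D3:**
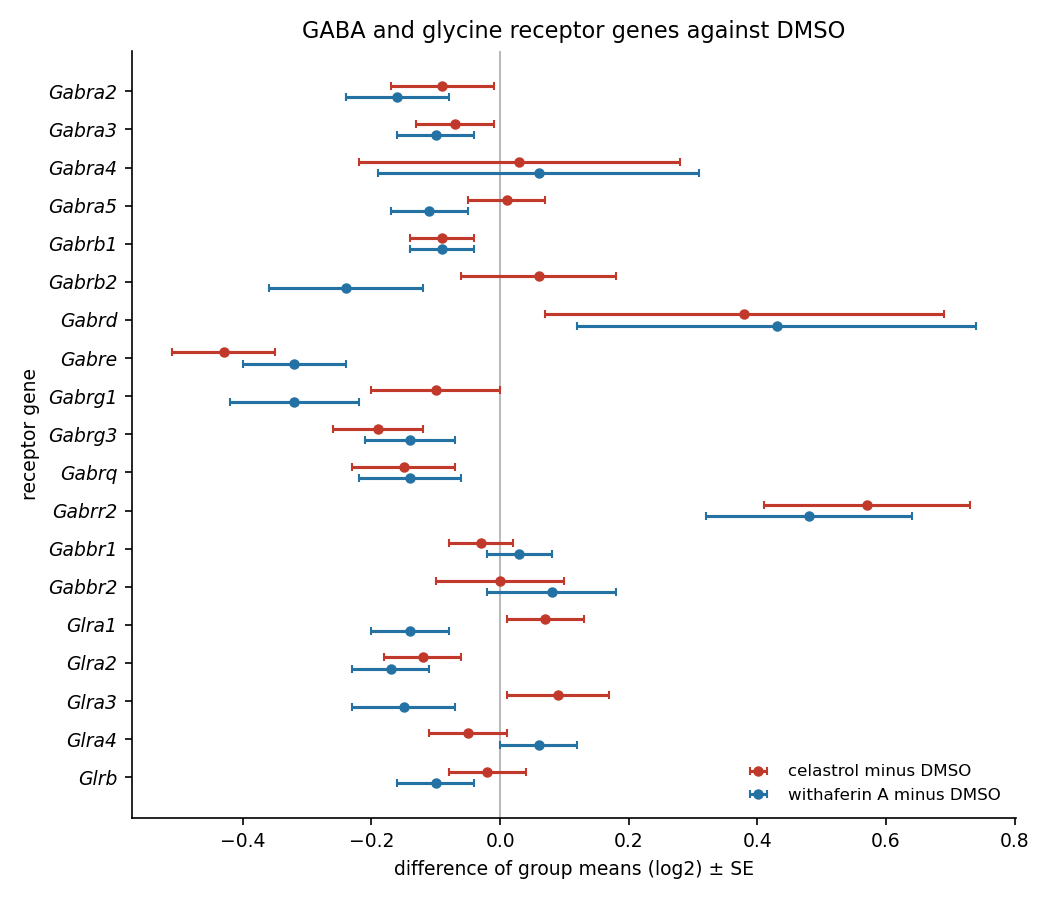
Difference from DMSO of the group mean (log2, horizontal axis, with SE as bars) for the 19 tested GABA-A, GABA-B and glycine receptor genes (vertical axis), celastrol in red and withaferin A in blue. Gabre is lower with both compounds (−0.43 and −0.32), Gabrr2 and Gabrd are higher with wide bars, and Glra1 and Glra3 lie on opposite sides of 0 for the compounds.

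GABA-B receptors are G protein-coupled dimers of the products of Gabbr1, which binds GABA, and Gabbr2, which couples to the G protein. Gabbr1 read 12.75, 12.68, 12.72 and 12.78 with DMSO, 12.76, 12.65, 12.73 and 12.68 with celastrol and 12.72, 12.76, 12.77 and 12.79 with withaferin A, so all 12 arrays lay between 12.65 and 12.79. Its values were −0.03 ± 0.05 (adjusted p = 0.889) and 0.03 ± 0.05 (adjusted p = 0.812), with 95% intervals of −0.13 to 0.07 and −0.08 to 0.13, and the values of Gabbr2 were −0.00 and 0.08. Neither group of treated arrays stood apart from DMSO for these genes.

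Glycine receptors are inhibitory channels of alpha subunits (Glra1 to Glra4) and the beta subunit Glrb. After withaferin A 4 of 5 had lower means (4 with centred arrays and 5 with quantile normalization repeated), with a median of −0.14, and after celastrol 3 of 5, with a median of −0.02. Glra1 read 10.24, 10.18, 10.14 and 10.11 with DMSO, 10.11, 10.31, 10.28 and 10.26 with celastrol and 9.99, 10.0001, 10.14 and 9.99 with withaferin A. The withaferin A arrays other than replicate 3 were the lowest of the 12, and withaferin A replicate 3 lay inside the DMSO range. Its values were 0.07 ± 0.06 (adjusted p = 0.761) for celastrol, −0.14 ± 0.06 (adjusted p = 0.289) for withaferin A and −0.21 ± 0.06 (adjusted p = 0.167) between them.

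Glra3 read 8.79, 8.55, 8.48 and 8.73 with DMSO, 8.67, 8.75, 8.66 and 8.85 with celastrol and 8.46, 8.55, 8.54 and 8.38 with withaferin A. All celastrol arrays were above all withaferin A arrays, with DMSO spread across both. Withaferin A minus celastrol was −0.25 ± 0.08 (adjusted p = 0.179), and the values against DMSO were 0.09 and −0.15. Glra2, the alpha subunit of the developing brain, had −0.12 ± 0.06 (adjusted p = 0.51) and −0.17 ± 0.06 (adjusted p = 0.244), and Glrb had −0.02 and −0.10. The mean over the 5 genes was −0.13 to −0.06 around the DMSO mean on the withaferin A arrays, against −0.08 to 0.07 on the DMSO arrays and −0.06 to 0.04 on the celastrol arrays.

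Glutamate acts through the AMPA, kainate and NMDA channels and through metabotropic receptors. With Grid1 of the delta class, counted with them here, these were 23 genes in all. None was called by limma (0.769% and 0% of all genes were). An unadjusted p under 0.05 was found for 1 of them after celastrol, or 4.35% against 10.4% of all genes, and for 2 after withaferin A, or 8.7% against 15.7%, and the median was −0.02 in both comparisons. NMDA receptors, which let calcium in and are blocked by magnesium at rest, gave the smallest p. Grin2c encodes GluN2C, the subunit of adult cerebellum, thalamus and astrocytes, whose channels are less sensitive to magnesium. Its signals were 7.89, 8.02, 8.04 and 8.06 on the DMSO arrays, 8.28, 8.20, 8.39 and 8.17 on the celastrol arrays and 8.19, 8.14, 8.39 and 8.30 on the withaferin A arrays. The 4 DMSO arrays were the lowest of the 12, with 8.06 the highest of them and 8.14 the lowest treated array.

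Grin2c had a value of 0.26 ± 0.07 (adjusted p = 0.128) for celastrol and 0.25 ± 0.07 (adjusted p = 0.169) for withaferin A, a 1.2-fold and 1.19-fold higher mean, and neither passed. Withaferin A minus celastrol was −0.00 ± 0.07, with a 95% interval of −0.15 to 0.14. Grin2b, which encodes the GluN2B subunit of juvenile and many hypothalamic synapses, read 10.49, 10.44, 10.16 and 10.58 with DMSO, 10.61, 10.46, 10.70 and 10.46 with celastrol and 10.25, 10.54, 10.61 and 10.72 with withaferin A. The ranges overlapped, with the lowest array in the DMSO group and the highest in the withaferin A group. Its values were 0.14 ± 0.11 (adjusted p = 0.719) and 0.11 ± 0.11 (adjusted p = 0.647). Grin2a had 0.13 and 0.12, and the modulatory subunit genes Grin3a and Grin3b lay between −0.07 and 0.04.

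AMPA receptors carry fast excitation, and their subunits Gria1 to Gria4 set speed and calcium entry. All 4 had lower means after withaferin A, from −0.14 to −0.06 (4 also with centred arrays, and 3 with quantile normalization repeated), and 2 of 4 after celastrol. Gria4 read 10.48, 10.43, 10.21 and 10.31 with DMSO, 10.27, 10.33, 10.35 and 10.34 with celastrol and 10.28, 10.30, 10.15 and 10.16 with withaferin A, with the DMSO arrays spanning 10.21 to 10.48 and covering all celastrol arrays. Its values were −0.04 ± 0.06 (adjusted p = 0.901) and −0.14 ± 0.06 (adjusted p = 0.325). Gria1 read 11.95, 11.82, 11.80 and 11.95 with DMSO, 11.77, 11.85, 11.78 and 11.86 with celastrol and 11.78, 11.79, 11.78 and 11.78 with withaferin A. Its withaferin A arrays, from 11.78 to 11.79, lay just under the lowest DMSO array, and the value was −0.10 ± 0.05 (adjusted p = 0.377). The mean over the 4 AMPA genes was −0.12 to −0.06 on the withaferin A arrays, inside the DMSO range of −0.16 to 0.11, in which replicate 3 was the lowest.

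Kainate receptors work before and after the synapse. Grik1, which encodes GluK1, read 8.49, 8.31, 8.19 and 8.23 with DMSO, 8.25, 8.13, 8.18 and 8.33 with celastrol and 8.06, 8.19, 8.07 and 7.89 with withaferin A. Withaferin A replicate 4 was the lowest array and DMSO replicate 1 the highest, and withaferin A replicate 2 touched the lowest DMSO array at 8.19. The values were −0.08 ± 0.08 (adjusted p = 0.803) and −0.25 ± 0.08 (adjusted p = 0.192). Grik2 to Grik5 had values from −0.10 to 0.01 after celastrol and from −0.04 to 0.03 after withaferin A. Grid1 encodes GluD1, a synapse organizer that binds cerebellins, and read 10.42, 10.42, 10.44 and 10.45 with DMSO, 10.41, 10.36, 10.37 and 10.46 with celastrol and 10.44, 10.59, 10.43 and 10.45 with withaferin A. Withaferin A replicate 2 was its one high array, and the values were −0.03 ± 0.05 (adjusted p = 0.883) and 0.04 ± 0.05 (adjusted p = 0.724).

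Among the 7 metabotropic glutamate receptors, Grm5 couples to Gq and is found after the synapse, Grm2 and Grm3 couple to Gi, and Grm4, Grm6, Grm7 and Grm8 are Gi receptors mostly of nerve endings. The class medians were −0.02 for either compound, and after withaferin A the median was −0.07 with centred arrays and 0.06 with quantile normalization repeated. Grm3 read 10.61, 10.50, 10.60 and 10.69 with DMSO, 10.53, 10.44, 10.58 and 10.48 with celastrol and 10.46, 10.60, 10.64 and 10.68 with withaferin A, with overlapping groups and values of −0.09 ± 0.06 (adjusted p = 0.651) and −0.01 ± 0.06 (adjusted p = 0.962). Grm5 read 11.15, 11.20, 11.13 and 11.13 with DMSO, 11.15, 11.10, 11.06 and 11.19 with celastrol and 11.11, 11.14, 11.15 and 11.10 with withaferin A, so all 12 arrays lay between 11.06 and 11.20. Its values were −0.03 ± 0.05 (adjusted p = 0.904) and −0.03 ± 0.05 (adjusted p = 0.815), with 95% intervals of −0.13 to 0.08 and −0.13 to 0.07.

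Acetylcholine acts on nicotinic channels and on 5 muscarinic G protein-coupled receptors. Chrm3, a Gq-coupled receptor with a known role in food intake and gland secretion, read 9.32, 9.21, 9.22 and 9.20 on the DMSO arrays, 9.52, 9.46, 9.55 and 9.33 on the celastrol arrays and 9.16, 9.26, 9.41 and 9.18 on the withaferin A arrays. The celastrol arrays lay at or above 9.33 and the DMSO arrays at or below 9.32, so the groups were separate by 0.01 only, and withaferin A replicate 3 lay inside the celastrol range. The values were 0.23 ± 0.07 (adjusted p = 0.172) for celastrol, 0.02 ± 0.07 (adjusted p = 0.928) for withaferin A and −0.21 ± 0.07 (adjusted p = 0.184) between them. Chrm5, the Gq-coupled receptor of dopamine neurons, read 8.68, 8.86, 8.75 and 8.60 on the DMSO arrays, 8.53, 8.59, 8.35 and 8.51 on the celastrol arrays and 8.37, 8.58, 8.48 and 8.32 on the withaferin A arrays. The lowest DMSO array, 8.60, was above the highest treated array, 8.59. Its values of −0.23 ± 0.08 (adjusted p = 0.228) and −0.29 ± 0.08 (adjusted p = 0.163) did not pass. Chrm1, Chrm2 and Chrm4 had values from 0.02 to 0.04 after celastrol and from −0.05 to 0.05 after withaferin A.

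Of the 10 tested nicotinic genes, 8 had higher means after withaferin A (median 0.09) and 4 after celastrol (median −0.06). Withaferin A was above celastrol for 9 of 10, against 54.9% of all genes, and for 9 of 10 with either other scaling. Some of the 10 were dim, such as Chrng (5.96 to 6.48) and Chrnb3 (5.97 to 6.83). Chrnb1, a subunit of the muscle receptor, read 5.72, 6.06, 5.81 and 5.94 on the DMSO arrays, 5.91, 5.71, 5.69 and 5.75 on the celastrol arrays and 6.10, 6.19, 5.97 and 6.42 on the withaferin A arrays. The withaferin A arrays lay above all celastrol arrays, and celastrol replicates 2, 3 and 4 and DMSO replicate 1 lay below the level of the filter, 5.81. Its values were 0.41 ± 0.10 (adjusted p = 0.114) between the compounds, −0.12 ± 0.10 (adjusted p = 0.733) for celastrol and 0.29 ± 0.10 (adjusted p = 0.215) for withaferin A. Chrne, another muscle subunit gene and also dim, had 0.26 ± 0.09 (adjusted p = 0.244) after withaferin A. Among the subunits of brain receptors, Chrna4 had 0.03 and 0.20, Chrnb2 −0.10 and −0.06, and Chrna7 −0.08 ± 0.06 (adjusted p = 0.713) and 0.06 ± 0.06 (adjusted p = 0.652), with 0.13 ± 0.06 (adjusted p = 0.274) between the compounds.

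Of the 13 serotonin receptor genes, the largest class tested, 11 had lower means after celastrol, with a median of −0.08, and 11 with either other scaling. A higher mean after celastrol was found for 15.4% of them, against 42.6% of all genes. After withaferin A 7 of 13 were lower, with a median of −0.04 (10 and 9 with centred arrays and with quantile normalization repeated). Higher means then made up 46.2%, against 48.5% of all genes. The mean over the 13 genes was −0.02, −0.08, −0.14 and −0.07 with celastrol and −0.04, −0.03, 0.10 and −0.03 with DMSO, so celastrol replicate 1 overlapped with DMSO. None of the 13 was called in any pairwise comparison of all 12 arrays. At an unadjusted p under 0.05 there were 4 in each of the 3 comparisons, or 30.8%, against 10.4%, 15.7% and 16.1% of all genes.

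Htr1b encodes a Gi-coupled receptor of nerve endings, through which serotonin acts on feeding neurons of the arcuate nucleus. Its signals were 9.27, 9.16, 9.33 and 9.11 on the DMSO arrays, 9.46, 9.50, 9.33 and 9.33 on the celastrol arrays and 9.17, 9.07, 9.11 and 9.11 on the withaferin A arrays. All celastrol arrays were above all withaferin A arrays, and the DMSO arrays lay between and overlapped with both. Withaferin A minus celastrol was −0.29 ± 0.06 (adjusted p = 0.0882), the smallest adjusted p of a receptor gene in that comparison, with a 95% interval of −0.43 to −0.16. Against DMSO the values were 0.19 ± 0.06 (adjusted p = 0.234) and −0.10 ± 0.06 (adjusted p = 0.428).

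Htr1f, another Gi-coupled receptor gene, read 6.40, 6.55, 6.89 and 6.57 on the DMSO arrays, 6.62, 6.50, 6.69 and 6.39 on the celastrol arrays and 6.85, 6.94, 6.998 and 6.84 on the withaferin A arrays. The withaferin A arrays lay above all celastrol arrays and above all DMSO arrays but replicate 3. The values were −0.05 ± 0.10 (adjusted p = 0.903) for celastrol, 0.31 ± 0.10 (adjusted p = 0.192) for withaferin A and 0.36 ± 0.10 (adjusted p = 0.144) between them. Without DMSO replicate 3 the withaferin A value was 0.40 ± 0.08 and was called (adjusted p = 0.0474). It was called in this 1 of 21 alternative fits only, and the highest adjusted p was 0.533, without DMSO replicate 1. Htr1d, the third receptor gene of this group with separate arrays, read 6.77, 6.80, 6.95 and 6.87 with DMSO, 6.72, 6.72, 6.64 and 6.77 with celastrol and 6.95, 6.87, 6.82 and 6.84 with withaferin A, with 0.15 ± 0.06 (adjusted p = 0.215) between the compounds.

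Htr2a and Htr2c are Gq-coupled, and Htr2c on arcuate neurons is a target of appetite suppressants. Htr2a read 9.70, 9.76, 9.79 and 9.54 with DMSO, 9.58, 9.60, 9.41 and 9.59 with celastrol and 9.48, 9.52, 9.52 and 9.45 with withaferin A. The withaferin A arrays lay under all DMSO arrays, and of the celastrol arrays replicate 3 was the lowest and the others reached into the DMSO range. Its values were −0.15 ± 0.06 (adjusted p = 0.396) and −0.21 ± 0.06 (adjusted p = 0.192). Htr2c read 10.66, 10.44, 10.43 and 10.48 with DMSO, 10.30, 10.41, 10.43 and 10.56 with celastrol and 10.42, 10.38, 10.36 and 10.25 with withaferin A. The withaferin A arrays lay under all DMSO arrays by a margin of 0.01, and the values were −0.08 ± 0.07 (adjusted p = 0.777) and −0.15 ± 0.07 (adjusted p = 0.31).

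Htr3a and Htr3b encode the subunits of the serotonin-gated channel and lie next to each other on chromosome 9. Htr3a read 6.54, 6.44, 6.64 and 6.54 with DMSO, 6.28, 6.23, 6.40 and 6.25 with celastrol and 6.40, 6.38, 6.26 and 6.67 with withaferin A. The celastrol arrays were below all DMSO arrays, and the withaferin A arrays spanned both groups. Its values were −0.25 ± 0.08 (adjusted p = 0.211) and −0.11 ± 0.08 (adjusted p = 0.51). Htr3b, a dim gene, had −0.08 and 0.29, and 0.37 ± 0.13 (adjusted p = 0.216) between the compounds. The Gs-coupled Htr4, Htr6 and Htr7, the Gi-coupled Htr1a and Htr5a, and Htr5b, given no coupling here, had values from −0.14 to 0.02 after celastrol and from −0.11 to 0.05 after withaferin A.

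The dopamine receptors chosen here, which leave out Drd2, are Gs-coupled (Drd1, Drd5) or Gi-coupled (Drd3, Drd4). All 4 of them had higher means after withaferin A, from 0.01 to 0.21 (3 of 4 with either other scaling), and 1 of 4 after celastrol. Drd1 read 7.58, 7.57, 7.80 and 7.49 with DMSO, 7.80, 7.49, 7.70 and 7.57 with celastrol and 7.79, 7.91, 7.57 and 7.83 with withaferin A. Withaferin A replicates 1, 2 and 4 were among the 5 highest arrays, together with DMSO replicate 3 and celastrol replicate 1, and withaferin A replicate 3 was low. The values were 0.03 ± 0.09 (adjusted p = 0.944) and 0.16 ± 0.09 (adjusted p = 0.389). Drd4 read 6.77, 6.91, 6.97 and 6.86 with DMSO, 6.90, 6.77, 6.89 and 6.61 with celastrol and 7.13, 7.17, 6.71 and 7.34 with withaferin A. Withaferin A replicates 1, 2 and 4 were the 3 highest arrays and replicate 3 was among the lowest, and the values were −0.09 ± 0.11 (adjusted p = 0.858), 0.21 ± 0.11 (adjusted p = 0.378) and, between the compounds, 0.29 ± 0.11 (adjusted p = 0.232).

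Noradrenaline receptors were represented by Adra1b, which is Gq-coupled, and Adra2c, which is Gi-coupled. Adra2c read 7.36, 7.16, 7.79 and 7.34 with DMSO, 7.48, 7.53, 7.43 and 7.51 with celastrol and 7.54, 7.80, 7.53 and 7.64 with withaferin A. DMSO replicate 3 was far above the other 3 DMSO arrays and close to the highest withaferin A array, 7.80. Its values were 0.08 ± 0.11 (adjusted p = 0.869) and 0.22 ± 0.11 (adjusted p = 0.342). Without DMSO replicate 3 the withaferin A value was 0.34 ± 0.07 and was called (adjusted p = 0.0496). It was called in this 1 of 22 alternative fits only, and the highest adjusted p was 0.655, without DMSO replicate 1. Adra1b had 0.07 ± 0.14 (adjusted p = 0.917) and 0.23 ± 0.14 (adjusted p = 0.456). Other adrenergic receptor genes were not analysed here.

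Histamine from the tuberomammillary nucleus promotes waking and limits feeding. Hrh1, the Gq-coupled receptor of that action, read 8.52, 8.44, 8.43 and 8.40 with DMSO, 8.36, 8.37, 8.33 and 8.32 with celastrol and 8.34, 8.47, 8.38 and 8.44 with withaferin A. The celastrol arrays lay below all DMSO arrays, at most 8.37 against at least 8.40, and withaferin A overlapped with both. The values were −0.10 ± 0.05 (adjusted p = 0.492) and −0.04 ± 0.05 (adjusted p = 0.723). Hrh2, which is Gs-coupled, read 7.63, 7.62, 7.62 and 7.76 with DMSO, 7.74, 7.63, 7.63 and 7.63 with celastrol and 7.82, 7.76, 7.72 and 7.92 with withaferin A. In both the DMSO and the celastrol group 1 array was high and 3 were nearly equal, and the values were −0.00 ± 0.06 (adjusted p = 0.999) and 0.15 ± 0.06 (adjusted p = 0.261). Hrh3, the Gi-coupled autoreceptor of histamine neurons, read 9.21, 9.12, 9.33 and 9.58 with DMSO, 9.72, 9.37, 9.74 and 9.30 with celastrol and 9.36, 9.31, 9.60 and 9.62 with withaferin A, with wide and overlapping groups. Its values were 0.23 ± 0.12 (adjusted p = 0.55) and 0.16 ± 0.12 (adjusted p = 0.533).

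Grouped by what the receptors do, the 45 tested channel subunit genes had medians of −0.04 after either compound and the 34 G protein-coupled receptor genes −0.03 after celastrol and 0.01 after withaferin A. Among the latter, leaving out Htr5b, the 8 Gq-coupled genes had a median of −0.05 after either compound, with 5 lower after celastrol and 6 after withaferin A. The 19 Gi-coupled genes had medians of −0.02 and 0.02. The 6 Gs-coupled genes had −0.02 and 0.06. Of all genes, 42.6% had a higher mean after celastrol and 48.5% after withaferin A.

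Proteins that anchor, traffic or desensitize the receptors were read from lists of 75 genes, of which 70 were tested. By limma 0 of the 70 were called in each pairwise comparison, against 0.769%, 0% and 0.0468% of all genes for celastrol, withaferin A and withaferin A minus celastrol. In the same order 4, 4 and 9 had an unadjusted p under 0.05, against 10.4%, 15.7% and 16.1% of all genes. Cacng4, which encodes a transmembrane AMPA receptor regulatory protein, read 10.35 to 10.37 with DMSO, 10.03 to 10.19 with celastrol and 10.13 to 10.35 with withaferin A. Its celastrol arrays lay under all DMSO arrays, and the value was −0.24 ± 0.06 (adjusted p = 0.0713). Gabarapl1, a relative of the GABA-A receptor-associated protein, read 12.24 to 12.52 with DMSO and 12.05 to 12.18 with withaferin A, a value of −0.23 ± 0.06 (adjusted p = 0.169). Nptx2, a secreted pentraxin that gathers AMPA receptors, had 0.23 ± 0.07 after withaferin A (adjusted p = 0.188).

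Plcl1, which binds GABA-A receptors and protein phosphatase, and Plcb1, the phospholipase under Gq-coupled receptors, had 0.20 ± 0.07 (adjusted p = 0.272) and 0.15 ± 0.06 (adjusted p = 0.399) after celastrol. Withaferin A minus celastrol was −0.27 ± 0.07 (adjusted p = 0.141) for Plcl1 and −0.19 ± 0.06 (adjusted p = 0.199) for Plcb1. In the same comparison Rgs2, which shortens Gq signalling, had −0.29 ± 0.08 (adjusted p = 0.16) and Homer3, a scaffold of Grm5, had 0.21 ± 0.05 (adjusted p = 0.115). Arrb2, an arrestin that ends receptor signalling, read 9.27 to 9.35 with DMSO, above the celastrol range of 9.19 to 9.23 and the withaferin A range of 9.17 to 9.23. Its values were −0.11 ± 0.04 (adjusted p = 0.336) and −0.13 ± 0.04 (adjusted p = 0.215). Musk, the kinase that organizes the muscle synapse, had 0.17 ± 0.06 after withaferin A (adjusted p = 0.25).

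The spread between arrays of a group differed widely among the receptor genes. The pooled SD within groups had a median of 0.11 for the receptor genes and for all genes, and ran from 0.04 (Gabbr1 and Grm5) to 0.53 (Gabrd). Gabrd encodes the delta subunit of GABA-A receptors outside the synapse and read 7.61, 6.90, 7.36 and 8.15 with DMSO, 8.15, 7.88, 8.37 and 7.15 with celastrol and 7.39, 7.54, 8.37 and 8.44 with withaferin A. Within each group its arrays differed by more than 1, and the values of 0.38 ± 0.31 (adjusted p = 0.74) and 0.43 ± 0.31 (adjusted p = 0.516) were large and did not pass. Its partner alpha4, encoded by Gabra4, read 10.48, 9.93, 9.81 and 10.77 with DMSO, 10.38, 9.99, 10.75 and 9.98 with celastrol and 9.82, 10.09, 10.48 and 10.84 with withaferin A, with a pooled SD of 0.43 and values of 0.03 and 0.06. Chrna6 (0.32), Grm4 (0.29), Chrnb3 (0.28) and Gabrr2 (0.27) followed.

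The arrays on which Gabra4 and Gabrd were high were those with high thalamus markers. With signals centred on the group means, Pearson's r with the thalamus marker score over 12 arrays was 0.99 for Gabra4 (Spearman's rho 0.97) and 0.91 for Gabrd (rho 0.89). Permuting arrays within groups in all 13824 ways gave exact p = 7.23e-05 for Gabra4, the smallest these permutations can give, and p = 0.00159 for Gabrd; adjusted over all 14953 genes tested the values were 0.0393 and 0.111. Within the 6 arrays with the lowest and the 6 with the highest score, r was 0.90 and 0.89 for Gabra4 and 0.32 and 0.80 for Gabrd. Without the 2 arrays farthest from the median score, r was 0.98 and 0.87. Permutation p for rho were 7.23e-05 and 0.000868. Of the marker lists, only the thalamus and aminergic neuron scores were related to receptor genes in this way. The average of the glutamate neuron markers (3 genes) varied too, at 0.10, −0.47, −0.12 and 0.49 around the DMSO mean with DMSO. It was 0.38, 0.02, 0.49 and −0.29 with celastrol and −0.27, −0.16, 0.41 and 0.56 with withaferin A. Whether Gabra4 and Gabrd followed these or other markers was not tested.

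The same exact permutation test was run for all 14953 genes. By Pearson's r, 6 of the 79 receptor genes, or 7.59%, had an adjusted p under 0.05 with the thalamus score, against 0.729% of all genes, and all 6 relations were positive. By Spearman's rho, 6 receptor genes also passed. At an unadjusted p under 0.05 there were 22 by r, 17 positive and 5 negative, or 27.8% against 8.41% of all genes. Besides Gabra4, the 6 were Gabbr2 (r = 0.95), Grm4 (0.87), Chrna4 (0.86), Grin2b (0.86) and Chrm2 (0.77). Their rho was 0.90, 0.88, 0.80, 0.93 and 0.88 in that order, and r without the 2 farthest arrays was 0.95, 0.80, 0.80, 0.84 and 0.79. Within the 6 lowest arrays r was −0.19 for Chrna4 and 0.37 to 0.72 for the other 4, so the relation of Chrna4 was not seen there. Genes next to the threshold were Grm3 (r = 0.84, adjusted exact permutation p = 0.0943), Gabrd and Grin2a (r = 0.80, adjusted exact permutation p = 0.167). The mean thalamus score was 0.27 higher on the celastrol arrays and 0.19 higher on the withaferin A arrays than with DMSO, with overlapping ranges. Of the 8 thalamus markers 7 and 8 had higher means after celastrol and withaferin A, and 0 were called by limma. With the score as a covariate, the SE for Gabrd went from 0.31 to 0.14 and its values were 0.12 (adjusted p = 0.845) for celastrol and 0.24 (adjusted p = 0.403) for withaferin A. Gabra4 then had −0.20 ± 0.06 (adjusted p = 0.215) and −0.10 ± 0.06 (adjusted p = 0.444). For celastrol and withaferin A in this fit, Gabbr2 had −0.09 and 0.02, Grm4 −0.01 and 0.09, and Chrna4 −0.07 and 0.13. Grin2b had 0.06 and 0.05, and Chrm2 −0.02 and −0.01. The fit called 1 of the 79 receptor genes after celastrol, Gabre, 0 after withaferin A and 0 between the compounds. No other tissue marker was used as a covariate, and the part of neighbouring tissue in the receptor differences was not tested beyond this fit.

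Chrna6, a nicotinic subunit gene of dopamine neurons, read 6.87, 7.42, 6.97 and 6.44 with DMSO, 6.96, 7.29, 6.96 and 6.61 with celastrol and 7.06, 7.38, 6.80 and 6.92 with withaferin A. Its neighbour on chromosome 8, the beta3 subunit gene Chrnb3, read 5.97, 6.76, 6.28 and 5.97 with DMSO, 6.39, 6.51, 6.26 and 6.35 with celastrol and 6.83, 6.82, 6.26 and 6.34 with withaferin A. Both were lowest on DMSO replicate 4, with DMSO replicate 1 next to it for Chrnb3, and among the DMSO arrays both were highest on replicate 2. With the score of aminergic neuron markers (6 genes, of which 3, among them Th and Slc6a3, passed the filter), r within groups was 0.84 for Chrna6 (rho 0.86, exact permutation p = 0.00203, adjusted p = 0.683) and 0.87 for Chrnb3 (rho 0.90, exact permutation p = 0.0068, adjusted p = 0.683). With this score 0 receptor genes, and 0% of all genes, passed after adjustment over all genes, and 16 receptor genes, or 20.3%, had an unadjusted exact permutation p under 0.05, against 6.58% of all genes. Of these relations 5 were positive and 11 negative. The aminergic and thalamus scores, centred on the groups, had opposite signs on every DMSO and withaferin A array and the same sign on celastrol replicates 1 and 4. With the thalamus score, r was −0.53 for Chrna6 and −0.78 for Chrnb3. Whether a gene followed either score apart from the other was not tested. For Chrna6, r was 0.75 without the 2 farthest arrays and 0.60 and 0.64 in the 6 lowest and 6 highest arrays. The dopamine transporter gene Slc6a3 itself ranged, among the DMSO arrays, from 7.50 on replicate 4 to 9.92 on replicate 2.

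**Figure D4:**
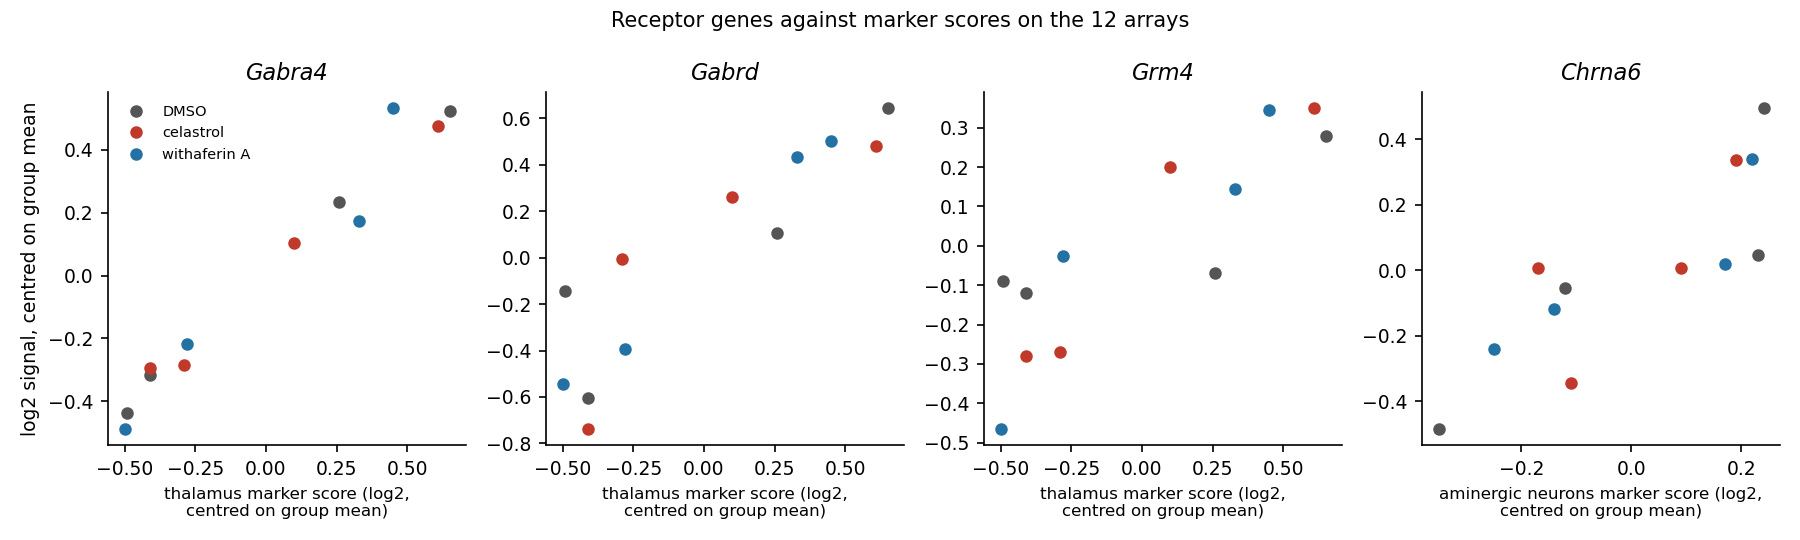
Log2 signal of Gabra4, Gabrd, Grm4 and Chrna6 (vertical axes, centred on the group mean) against the score of thalamus or aminergic neuron markers (horizontal axes, log2, centred on the group mean) on the 12 arrays, coloured by treatment. Over the 12 arrays the signal tends to be higher where the score is higher, with r of 0.99, 0.91, 0.87 and 0.84 from left to right, though the order is not kept in every group.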

How the data were processed

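RNA from 12 hypothalamus samples, 4 for each of DMSO, celastrol and withaferin A, was hybridised to Affymetrix arrays. The deposited values are log2 signals made with RMA, per the submitters' processing notes; per the labels the samples are biological replicates, and the RMA version is not given in the sources used here. They ranged from 2.64 to 15.08, with array medians from 6.89 to 6.98 and correlations between arrays from 0.981 to 0.994. Precision is limited by the number of arrays. P-values measure the spread between these samples, which may be in part technical.

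Of 35556 probe sets, 21789 had 1 gene symbol in the platform annotation, 1621 had several and 12146 none. Those with 1 symbol gave 19938 genes. Where a gene had more than 1 probe set, as Gabrb2 did, the brightest on average stood for it. Genes below the 25th percentile of the mean signal were left out, which kept 14953. limma 3.58.1 (R 4.3.3) was fitted to all 12 arrays with empirical Bayes moderation, and p-values were adjusted by Benjamini-Hochberg over all genes tested. The prior had 4.44 and the residual 9 degrees of freedom. Correlations used exact two-sided permutation of arrays within groups, adjusted over all genes tested for each of 2 marker scores.

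Receptor genes were chosen by symbol patterns. The reference holds 104 matching protein-coding genes, of which 91 had a probe set with 1 symbol, and the others were not analysed here. Genes described array by array were those called, the 6 with the smallest p in each pairwise comparison, the one with the smallest F test p in each class and a list of genes known for feeding or hypothalamic output. Gabrg1, Gria1, Htr1d, Gabrd, Gabra4, Chrna6 and Chrnb3 were added after their values were seen. The receptor genes, partner lists and marker lists were chosen with earlier results of these data known. Alternatives were the filter, the choice of probe set, normalization, the prior, array weights, a replicate block, 2 groups only, the threshold, leaving out each array and, added after seeing the data, a thalamus covariate. The scripts were tested on simulated data. Promoters came from RefSeq (GRCm38.p6).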

Additional observations from a re-analysis of the deposited data

Results flagged for a closer look

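In 6 of the 78 groups of 4 arrays checked (the named receptor genes in each treatment group), 1 array stood apart from the other 3 by more than Dixon's critical value, where chance gives about 1 in 20. Chrm3 read 9.32 on DMSO replicate 1 against 9.20 to 9.22 on the other DMSO arrays, and the gap was 0.88 of the group's range. Htr2a read 9.41 on celastrol replicate 3 against 9.58 to 9.60, a gap of 0.90 of the range. Glra1 read 10.14 on withaferin A replicate 3 against 9.99 to 10.0001, a gap of 0.93. Grid1 read 10.59 on withaferin A replicate 2 against 10.43 to 10.45, a gap of 0.86. Hrh2 stood apart on 1 array of each of 2 groups, with 7.76 on DMSO replicate 4 against 7.62 to 7.63 (gap 0.88) and 7.74 on celastrol replicate 1 against 7.63 on the other 3 (gap 0.95). The 6 departures lay on 6 different arrays.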

How the results depend on the processing

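The number of arrays, 4 in a group, limits what could be called, and RMA signals near the filter were dim. The called receptor genes after celastrol (1) numbered 0 with a replicate block and 2 with 2 groups only, and 0 to 2 when 1 array was left out. After withaferin A they numbered 0 to 2 when 1 array was left out, with 2 only without DMSO replicate 3. Between the compounds the threshold of 0.10 gave 1. For the F test the filter at the 50th percentile, the mean of probe sets and centred arrays gave 1 each, the intensity trend with robust prior, array weights and the threshold of 0.10 gave 2 each, and leaving out 1 array gave 0 to 1, with 1 without withaferin A replicate 1. Over all genes, the 115 called after celastrol became 60 with no filter, 195 with the trend and robust prior, 219 with array weights, 54 with the replicate block, 182 with 2 groups only, and, with 1 array left out, ran from 6, when DMSO replicate 2 was the one, to 207, when it was withaferin A replicate 1. The 0 called after withaferin A became 8 with the trend, 21 with array weights, 4 with the thalamus covariate, 172 without DMSO replicate 3 and 1 without withaferin A replicate 3. The 7 called between the compounds became 11 with no filter, 13 at the 50th percentile, 12 with centred arrays, 29 with the trend, 19 with array weights, 0 with 2 groups only and 0 to 56 with 1 array left out. The 53 of the F test became 15 with the replicate block, 27 with the thalamus covariate, 189 with the trend, 195 with array weights and 0 to 136 with 1 array left out. The labels do not say whether the replicate numbers pair the arrays. Same-numbered arrays correlated from −0.281 to 0.119 in their deviations from the group means, 2 of 12 pairs above 0.1, and 1 of 12 arrays correlated best with its own number. These correlations cannot tell whether same-numbered samples were handled together.

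Of the 78 values of named genes, 15 turned sign under at least 1 alternative, and the largest of them was 0.09 in size; the cause was not tested. After celastrol Htr1f was 0.003 with array weights and Hrh2 0.005 with quantile normalization. After withaferin A, centred arrays gave −0.031 for Chrm3, −0.019 for Gabbr1 and −0.005 for Grid1, the thalamus covariate −0.002 for Chrm3, quantile normalization 0.060 for Grm3 and 0.061 for Grm5, and array weights 0.013 for Grm3. Between the compounds, quantile normalization gave 0.022 for Grin2b and 0.078 for Grm5, array weights 0.009 for Grm5, and the thalamus covariate 0.006 for Grin2c. With 1 array left out, the celastrol values ran from −0.121 to 0.045 for Htr1f, −0.006 to 0.205 for Adra2c, −0.086 to 0.005 for Gria4, −0.027 to 0.035 for Hrh2 and −0.023 to 0.092 for Drd1. The withaferin A values ran from −0.036 to 0.046 for Chrm3 and −0.04 to 0.038 for Grm3. The differences between the compounds ran from −0.049 to 0.039 for Grin2c, −0.258 to 0.087 for Gabrr2, −0.14 to 0.005 for Hrh3, −0.095 to 0.062 for Grin2b and −0.021 to 0.021 for Grm5.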
